A study of Mus musculus with 22 samples.

Results

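The 100 array spots described here are those with the highest tumour-over-reference ratio in 12 mouse mammary tumours, out of 6476 spots that were bright in all 12 tumours, 19398 usable spots and 22575 spots per array. They were chosen from the measured values themselves. A spot had to carry a tumour signal of at least 100 above local background on every one of the 12 arrays, and spots were then ranked by the lowest of their 12 log2 ratios, each ratio being taken with signals floored at 16 and centred on the median of the array. Their high ratios on those 12 arrays are therefore how they were found and are given as description only, and tests of tumour over reference use the 10 arrays that took no part in the choice. The last spots inside the list, Olfr894 and Pfkl, had lowest ratios of 0.78 and 0.76, and the first outside it, Foxq1 and Gm4750, had 0.76 and 0.75. Of the 100 spots, 90 were paired with 1 gene each, for 82 different genes, and the other 10 have no listed gene and are called by spot number.

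The study measured total RNA of 22 end-stage mammary tumours on 22 arrays of 2 colours. Each tumour was labelled with Cy5 and set against whole-mouse total RNA labelled with Cy3, and no array had the dyes swapped. T121 is a fragment of the SV40 large T antigen that inactivates the pRb family of tumour suppressors. The series title names cooperation of Rb, Brca1 and p53 in malignant breast cancer as its subject.

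The tumours fall into 11 labels. WAP_T121_p53null was held by 2 tumours and WAP_T121_p53het by 1, all of the strain label B6D2F1, and WAP_T121 was held by 1 tumour of BALBc. These 4 tumours carry no Cre in their labels and are called WAP-T121 tumours here. The 12 tumours used for the choice were 8 labelled MMTV_T121_WAPCre_p53coco_Brca1coco, called p53coco Brca1coco tumours, and 4 labelled MMTV_T121_WAPCre_p53coco, called p53coco tumours. A further 6 Cre-labelled tumours were held by 1 label each, namely MMTV_T121_WAPCre_p53cohet, MMTV_T121_MMTVCre_p53cohet, MMTV_T121_WAPCre_p53cococ, MFT121_WAPCre_p53coco, MFT21_WAPCre_p53coco and WAPCre_p53coco_Brca1coco, the last of which names no T121. All 18 Cre-labelled tumours have the strain label mixed. The labels do not spell out coco, cococ, cohet, MFT121 or MFT21, and these are kept as given. WAP and MMTV name promoters that are active in mammary epithelium, so a transgene driven by either is limited to the cells that use it. The labels do not say whether tumours came from separate animals, and any technical share of their spread enters the p-values.

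Chemokines, interleukin-1 and acute-phase proteins are secreted by epithelial, stromal and myeloid cells during inflammation and draw in neutrophils and monocytes, and matrix metalloproteinases cut the extracellular matrix that those cells cross. Classical MHC class I molecules show peptides cut by the proteasome to CD8+ T cells, and interferon raises both them and the immunoproteasome subunits. Mammary tumours commonly hold macrophages, which carry receptors such as CD14 and TREM2.

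The arrays differed in ways that touch these values. Between 19.9% (p53null replicate 1) and 85.8% of usable spots had a tumour signal above background. On 3 of the 4 WAP-T121 arrays (p53null replicate 1, p53het and WAP_T121) the correlation of the reference signals with their median over the remaining arrays was only 0.544 to 0.784, against 0.943 to 0.992 on the other 19 arrays. The 3 arrays all lie outside the 12 used for the choice. The labelled tissue was checked against 7 tested spots of mammary epithelial genes, of which 5 to 7 were above 0 on all but 3 arrays. The exceptions were p53null replicate 1 with 2, p53null replicate 2 with 1 and p53coco replicate 2 with 1, and the summed log2 ratios of the 7 spots were -1.96, -2.45 and -11.5 there, while they lay between 4.41 and 18.6 elsewhere. In p53coco replicate 2 the keratin Krt18 stood at -2.01 and the adhesion molecule Epcam at -2.09. The summed log2 ratio of 5 stromal spots was 1.93 there, with 4 above 0, against -18.3 to -4.01 on the other arrays, and that of 5 basal spots was 11.96 in p53null replicate 2, against -13.2 to 1.33 on the others.

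Across the tumours that took no part in the choice, most of the 100 spots were again higher in tumour than in reference. In limma's test of the mean of the 10 arrays against 0, 75 of the 100 spots passed in the upward direction and 0 in the downward direction, where 11% of the 14270 tested spots passed upward and 15.1% downward. The median of the mean log2 ratios was 1.54 over the 100 spots and 0.04 over all tested spots. Without the 3 arrays of unlike reference 84 of the 100 passed. All 100 spots were among those tested. The reference is 1 pool of RNA whose own spread is not in this test. No array had the dyes swapped, so a dye bias of a spot would recur on these 10 arrays. The test cannot tell such a bias apart from a difference between tumour and reference.

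The level of the list differed between the tumours. The median log2 ratio of the 100 spots was -0.01 in p53null replicate 1, 1.11 in p53null replicate 2, 0.51 in the p53het tumour and 0.43 in the WAP_T121 tumour. In the 6 other Cre-labelled tumours it lay between 1.5 and 2.11, and in the 12 tumours of the choice between 1.47 and 2.42. The medians of all tested spots stayed between -0.03 and 0.05 on every array. The 100 spots were above 0 in all 6 of the other Cre-labelled tumours in 73 cases, against 18.8% of tested spots, and above 1 in all 6 in 32 cases, against 0.974%. On all 10 arrays 24 of them were above 0, against 3.17% of tested spots. In p53null replicate 1 only 34 of the 100 tumour signals were above background, against 81 to 100 on the other 9 arrays not used for the choice, so most of its ratios near 0 rest on signals at background.

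**Figure D1:**
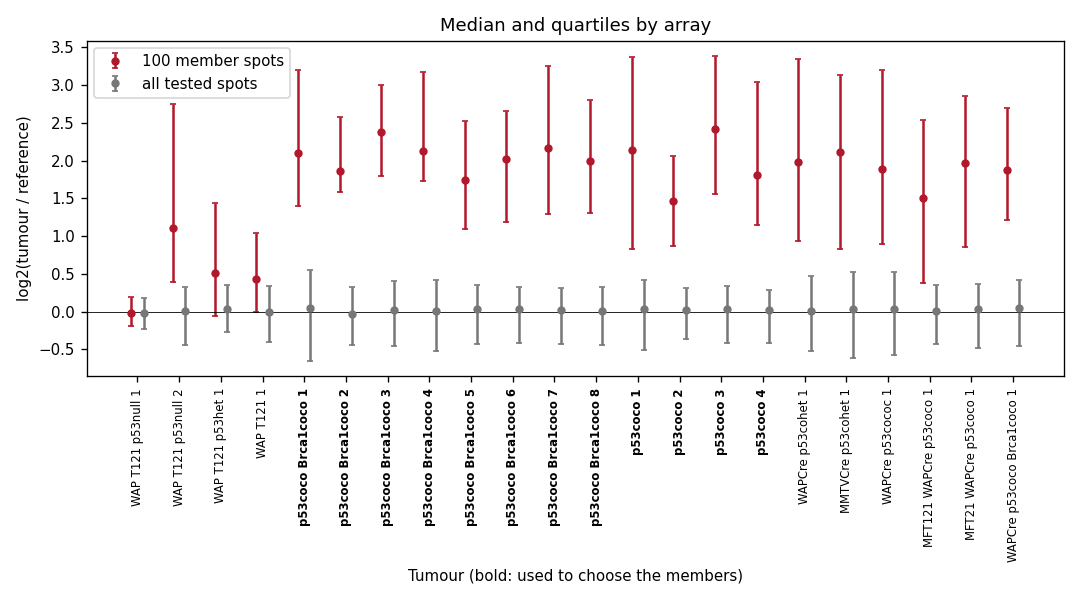
Median log2 ratio of tumour over reference on each of the 22 arrays, for the 100 spots (red) and for all 14270 tested spots (grey), with bars from the lower to the upper quartile. The 4 WAP-T121 arrays at the left have member medians between -0.01 and 1.11, and the 18 Cre-labelled arrays have member medians between 1.47 and 2.42.

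The spots were set apart by brightness in both channels. On the 12 arrays of the choice the median of their background-subtracted tumour signals was 2477 intensity units, against 818.5 for the 6476 bright spots. In the reference channel the median was 312 units for the 100 spots and 775.8 for the bright spots. The spots on the list were brighter in tumour and dimmer in reference than bright spots in general. They were chosen for high ratios on these same arrays, which largely sets this difference, so it is description only. The lowest of a spot's 12 ratios fell most often on p53coco Brca1coco replicate 2, for 35 spots, and on p53coco replicate 2, for 29.

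**Figure D2:**
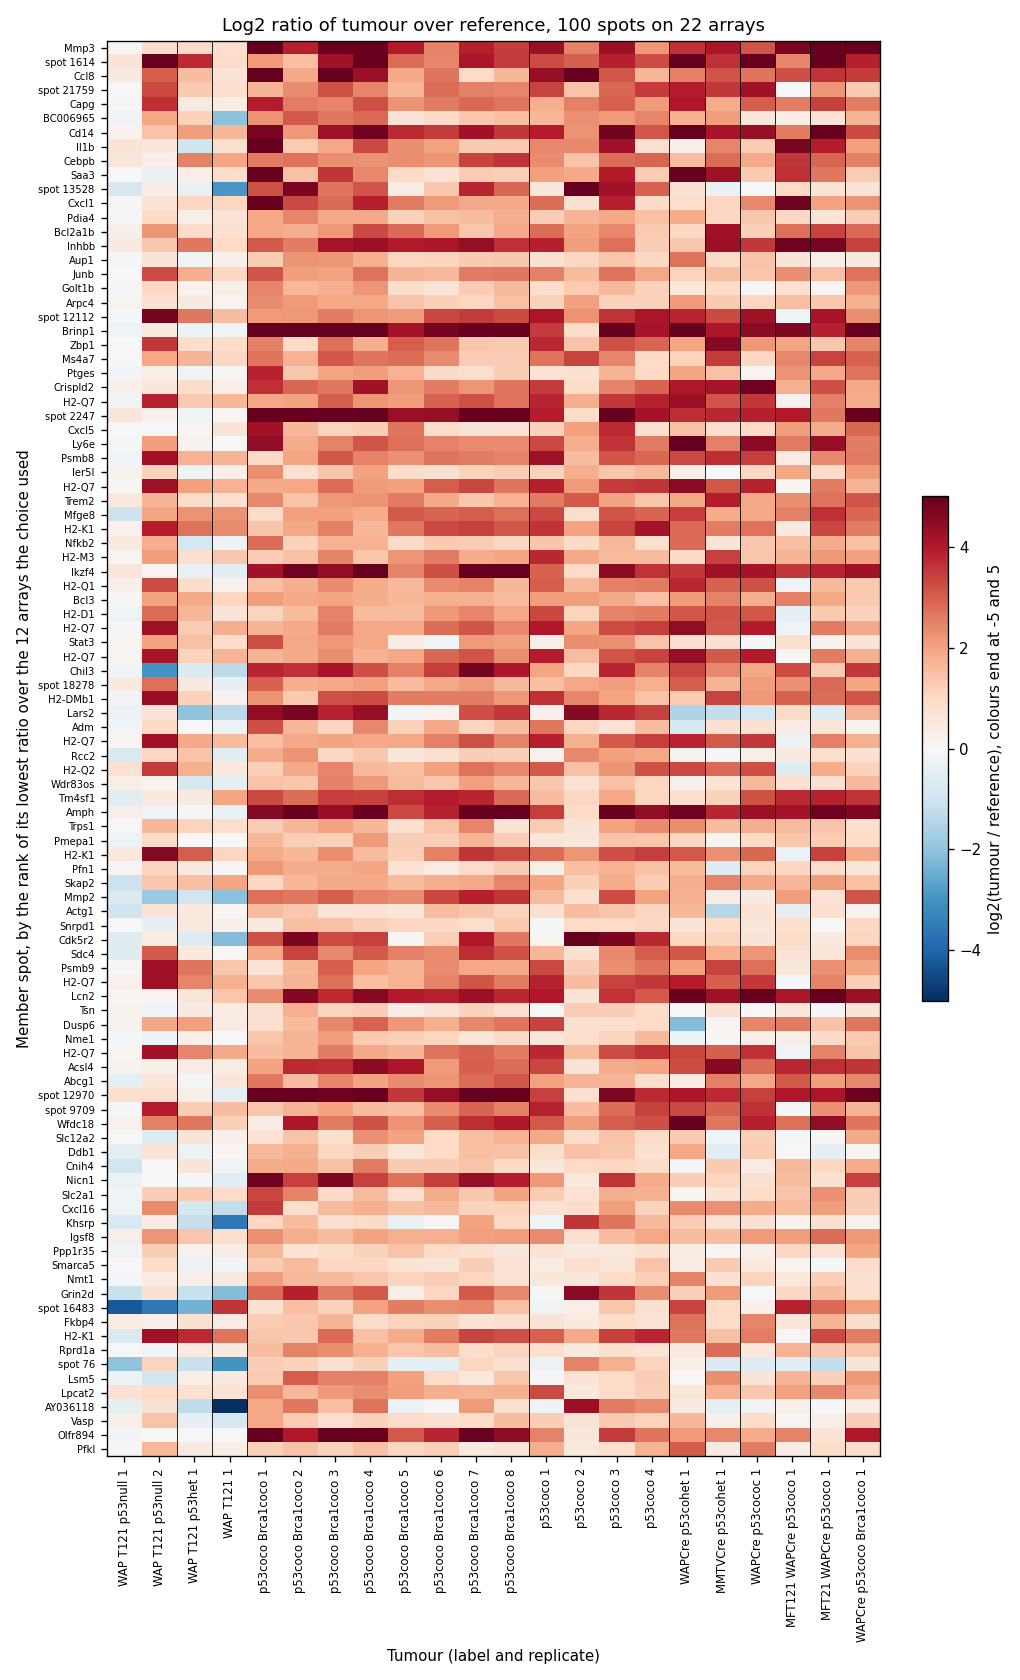
Log2 ratios of the 100 spots (rows, from the highest lowest-ratio at the top) on the 22 arrays (columns, by label; column names leave out MMTV and T121 where a label starts with them). Black lines part the labels, and colours end at -5 and 5. The rows of the H2-Q7 spots share 1 pattern across columns. Brinp1, Amph and Ikzf4 are pale in the 4 WAP-T121 columns and in p53coco replicate 2. The rows of AY036118, Lars2 and spot 13528 vary strongly within the 12 columns of the choice.

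Matrix metalloproteinases led the list through Mmp3, stromelysin-1, which cleaves matrix proteins and activates other metalloproteinases. It had the highest lowest-ratio of all, at 3.72 on the scale of the choice. After normexp and loess normalization its log2 ratio ran from 2.47 to 6.27 in the p53coco Brca1coco tumours, with a median of 3.93, and was 4.30, 2.48, 4.30 and 2.16 in the p53coco tumours. In the 4 WAP-T121 tumours it was 0.07, 0.93, 0.95 and 0.85, against 3.13 to 6.0 with a median of 4.39 in the 6 other Cre-labelled tumours. The 2 sets of tumours did not overlap, and over these 10 arrays the mean was 3.01 with an SE of 0.60 and a limma adjusted p of 0.00401. Mmp2, a gelatinase mostly made by stromal fibroblasts, differed in that its mean over the same 10 arrays was 0.31 with an adjusted p of 0.66. It was below 0 in all 4 WAP-T121 tumours, at -0.73, -1.85, -0.90 and -2.05, and between 0.41 and 3.15 in the 6 other Cre-labelled tumours. Of the 16 tested spots of Mmp genes, 2 were on the list, and of the 14 that were not, 1 was higher and 1 lower over the 10 arrays.

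The promoter of Mmp3 is shown because an element for AP-1, the dimer of Jun and Fos proteins, is well known there and Junb is also on the list. The letters searched were TGANTCA on both strands, from 250 bases before to 50 after the start, and the 250 bases before it are printed. In them capitals mark the match that begins 46 bases before the transcription start. The sequence comes from RefSeq, build GRCm38.p6, plus strand, chr9:7445572-7445821.
Mmp3: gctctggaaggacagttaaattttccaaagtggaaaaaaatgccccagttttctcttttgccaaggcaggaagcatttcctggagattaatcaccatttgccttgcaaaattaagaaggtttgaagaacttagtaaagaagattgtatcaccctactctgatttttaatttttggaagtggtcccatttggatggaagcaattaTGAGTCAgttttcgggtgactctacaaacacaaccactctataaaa
This motif was found in the promoters of 7 of the 66 genes on the list that have a promoter in the table, or 10.6%, against 8.97% of 27025 genes. The 7 were Bcl2a1b, H2-DMb1, Mmp3, Ms4a7, Nfkb2, Nme1 and Trem2. A match describes letters and is neither a site nor a cause.

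Secreted inflammatory proteins made up another group. Ccl8, a chemokine for monocytes, ran from 1.01 to 5.54 in the p53coco Brca1coco tumours with a median of 2.28, and was 4.34, 5.38, 3.11 and 1.64 in the p53coco tumours. In the WAP-T121 tumours it was 0.45, 3.03, 1.55 and 0.67, against 2.53 to 3.59 in the 6 other Cre-labelled tumours, so that p53null replicate 2 lay within the range of the Cre-labelled tumours. Its mean over the 10 arrays was 2.44 with an SE of 0.32 and a limma adjusted p of 0.000304. Cxcl1, which attracts neutrophils through CXCR2, was 0.05, 0.64, 1.09 and 1.08 in the WAP-T121 tumours, against 0.87 to 4.86 with a median of 2.14 in the 6 others. These ranges overlapped, and the mean over the 10 arrays was 1.63 with an adjusted p of 0.0086. Cxcl5, another CXCR2 ligand, and Cxcl16, a membrane-bound chemokine, had smaller means of 1.09 and 1.15. Among 26 tested spots of chemokine genes 4 were on the list, and of the other 22, 7 were higher and 2 lower over the 10 arrays.

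Interleukin-1 and acute-phase genes varied widely between tumours of 1 label. Il1b, the gene of interleukin-1 beta, was at 6.07 in p53coco Brca1coco replicate 1, while the other 7 tumours of that label lay between 1.27 and 3.30. In the p53coco tumours it was 2.41, 2.42, 4.18 and 0.83. Saa3, a serum amyloid made by inflamed epithelium and macrophages, ran from 0.72 to 5.27 in the p53coco Brca1coco tumours. It was -0.04, -0.38, 0.32 and 0.86 in the WAP-T121 tumours, against 1.27 to 5.12 in the 6 other Cre-labelled tumours, without overlap. The tumour signal of Saa3 was above background on only 1 of the 4 WAP-T121 arrays. Lcn2, lipocalin-2, which binds bacterial iron carriers, was 0.09, 0.13, 0.60 and 1.37 in the WAP-T121 tumours and 4.06 to 6.65 in the 6 others. Over the 10 arrays Lcn2 had a mean of 3.30 and, with spot 1614 at 3.76, Cd14 at 3.11 and Mmp3 at 3.01, stood highest among the 100 spots. Among 10 tested spots of neutrophil attractants and acute-phase genes 5 were on the list. Of the other 5, 2 were higher and 2 lower over the 10 arrays. Inhbb, the beta B subunit of activins and inhibins, averaged 2.76 with an SE of 0.45 and an adjusted p of 0.00131, and Ptges, which makes prostaglandin E2, averaged 1.06 with an adjusted p of 0.0278.

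The promoter of Cxcl1 is shown because a kB element, the binding sequence of NF-kB, is known in it and Nfkb2 and Bcl3 of that pathway are on the list. The letters searched were GGAANTTCC on both strands, and capitals mark the match, which begins 70 bases before the start. The sequence comes from RefSeq, build GRCm38.p6, plus strand, chr5:90890995-90891244.
Cxcl1: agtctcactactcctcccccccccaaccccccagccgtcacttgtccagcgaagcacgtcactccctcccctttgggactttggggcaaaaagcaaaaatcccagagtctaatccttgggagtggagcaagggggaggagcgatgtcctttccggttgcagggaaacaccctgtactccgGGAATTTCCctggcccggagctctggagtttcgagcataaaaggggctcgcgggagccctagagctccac
The motif was found for 3 of the 66 genes, Cxcl1, Dusp6 and H2-DMb1, or 4.55%, against 1.07% of 27025 genes. Since the letters were searched because the element is known in Cxcl1, no enrichment of the list is read from these percentages.

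Genes known from macrophages were also on the list. They were measured in RNA of whole tumours, where fewer cells of a type and less RNA per cell cannot be told apart. Cd14, a co-receptor for bacterial lipopolysaccharide, was 0.16, 1.41, 2.08 and 1.65 in the WAP-T121 tumours, against 2.58 to 5.92 with a median of 4.25 in the 6 other Cre-labelled tumours. It ran from 2.19 to 4.85 in the p53coco Brca1coco tumours and was 3.91, 2.23, 4.81 and 3.10 in the p53coco tumours, so every Cre-labelled tumour exceeded every WAP-T121 tumour. Its mean over the 10 arrays was 3.11 with an SE of 0.51 and a limma adjusted p of 0.00134. Trem2, a lipid-sensing receptor of macrophages, was 0.51, 1.71, 0.91 and 0.83 in the WAP-T121 tumours and 1.93 to 3.93 in the 6 others. Its lowest values in the p53coco Brca1coco and p53coco tumours, 1.34 and 1.40, lay below that of p53null replicate 2. Capg, an actin-capping protein abundant in macrophages, was 3.63 in p53null replicate 2 and -0.06, 0.45 and 0.38 in the other WAP-T121 tumours, against 1.84 to 4.02 in the 6 others. Ms4a7, a membrane protein of monocytes and macrophages, averaged 1.90 over the 10 arrays with an adjusted p of 0.00148, and Bcl2a1b, which protects blood cells from apoptosis, averaged 1.96 with an adjusted p of 0.00266.

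Chil3, a chitinase-like protein of mouse macrophages, did not pass over the 10 arrays, at a mean of 1.06 with an adjusted p of 0.222. It was -0.13, -2.99, -0.68 and -1.32 in the WAP-T121 tumours and 1.28 to 3.52 in the 6 other Cre-labelled tumours. Of 8 tested spots for 8 macrophage genes listed with these values in view, 6 were higher over the 10 arrays, 4 of them among the 5 on the list. The general immune list held 5 genes on the array, of which 4 spots were tested, 3 were higher and none was on the list, and its summed log2 ratio was -1.46 in the WAP_T121 tumour and 7.95 in p53coco replicate 1 at the ends of its range. Whether the number of macrophages or of other immune cells differed between tumours was not tested.

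**Figure D3:**
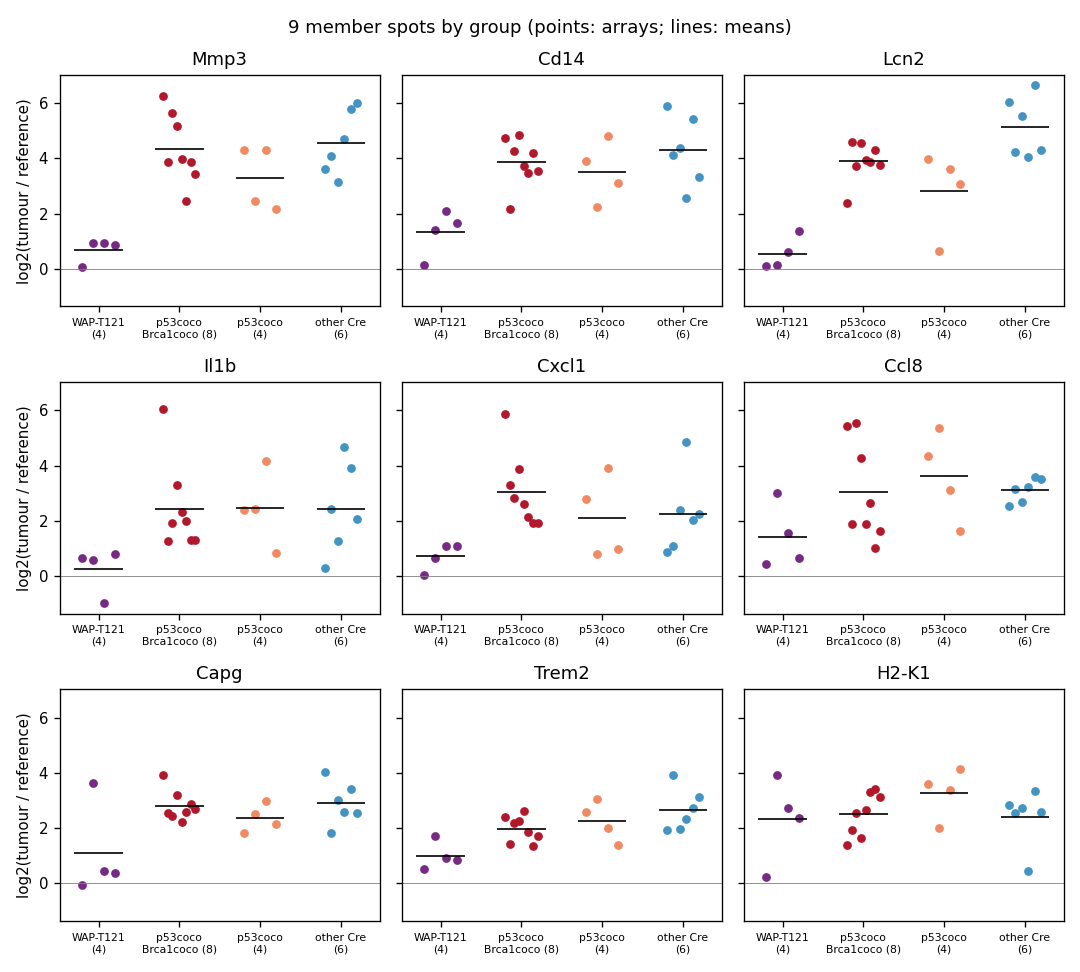
Log2 ratio of tumour over reference for 9 spots on the list, by group; each point is 1 array and each line the mean of its group. Mmp3, Cd14, Lcn2 and Trem2 in the 4 WAP-T121 tumours lie below all 6 other Cre-labelled tumours, while Capg, Ccl8 and H2-K1 overlap between these groups.

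Transcription factors that act downstream of cytokines were also on the list. Cebpb, a factor of the acute-phase response and of mammary epithelium, was 2.20 to 3.63 in the p53coco Brca1coco tumours and 2.38, 1.44, 2.79 and 2.90 in the p53coco tumours. Its mean over the 10 arrays was 2.06 with an SE of 0.29 and a limma adjusted p of 0.000495. Bcl3, an atypical IkB protein that works with NF-kB subunits, was between 1.57 and 2.10 in the p53coco Brca1coco tumours, and averaged 1.72 with an adjusted p of 0.000209 over the 10 arrays. Junb averaged 1.66 and Nfkb2, the gene of the p100 and p52 subunits, averaged 1.08, with adjusted p-values of 0.00111 and 0.023. Among 6 tested spots of AP-1 subunits only Junb was on the list, and of the other 5, 1 was higher over the 10 arrays. Of 4 tested spots of NF-kB subunits and Bcl3, 2 were on the list, and of the other 2, 1 was higher over the 10 arrays. Stat3, activated by interleukin-6 family cytokines, ranged from -0.13 to 3.21 within the p53coco Brca1coco tumours and averaged 0.76 over the 10 arrays.

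MHC class I genes held 14 of the 100 spots, of which 7 were named H2-Q7, 3 H2-K1 and 1 each H2-D1, H2-Q1, H2-Q2 and H2-M3. All 14 were higher over the 10 arrays, with means between 1.61 and 2.39, and of 9 tested class I spots that were not on the list, 7 were higher and 1 lower. Several of these genes are close copies of each other, so a probe may bind more than 1 of them, and the spots are not all independent measures of separate genes. The 14 spots still differed, with a spread of 0.67 to 3.56 log2 units within an array and a median spread of 1.66. The 7 H2-Q7 spots spread over 0.13 to 1.32 log2 units within an array, with a median spread of 0.45. Their median was 0.09 and 4.19 in the p53null tumours, 1.88 in the p53het tumour and 1.72 in the WAP_T121 tumour. In the 6 other Cre-labelled tumours it ran from -0.06, in MFT121_WAPCre_p53coco, to 4.26, and in the p53coco Brca1coco and p53coco tumours it averaged 2.31 ± 0.53 (SD, n = 8) and 3.12 ± 0.92 (SD, n = 4). Strain labels differ between the tumours and class I genes vary between strains. The part of strain in these values was not tested.

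The immunoproteasome subunits Psmb8 and Psmb9, which cut peptides for class I molecules, were likewise highest in p53null replicate 2 among the WAP-T121 tumours. Psmb8 was -0.15, 4.21, 1.74 and 1.69 in the WAP-T121 tumours, against 0.42 to 3.71 in the 6 other Cre-labelled tumours, with its lowest value there also in MFT121_WAPCre_p53coco. Over the 10 arrays Psmb8 averaged 2.33 and Psmb9 averaged 2.13, with limma adjusted p-values of 0.00158 and 0.00131. H2-DMb1, a chain of the molecule that loads peptides onto MHC class II, averaged 2.13 with an adjusted p of 0.00309. Of the other 5 tested class II spots 4 were higher. Of 7 tested spots of peptide loading and immunoproteasome genes 2 were on the list, and of the other 5, 4 were higher. Zbp1, an interferon-induced sensor of nucleic acids, was 3.52 in p53null replicate 2 and -0.02, 0.89 and 0.92 in the other WAP-T121 tumours, and averaged 1.98 with an adjusted p of 0.00289.

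The promoters of H2-K1 and H2-D1 are shown because class I genes are known to share an enhancer with a kB element and both genes were higher. The letters searched were GGGATTCCC on both strands, and capitals mark the match, which begins 110 bases before the start in H2-K1 and 170 bases before it in H2-D1. Both come from RefSeq, build GRCm38.p6, with H2-K1 on the minus strand at chr17:34000348-34000597 and H2-D1 on the plus strand at chr17:35262844-35263093.
H2-K1: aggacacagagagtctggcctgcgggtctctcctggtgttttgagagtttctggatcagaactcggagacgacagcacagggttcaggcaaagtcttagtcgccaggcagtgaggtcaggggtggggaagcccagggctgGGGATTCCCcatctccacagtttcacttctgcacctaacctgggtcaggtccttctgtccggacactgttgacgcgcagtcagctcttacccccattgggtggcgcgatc
H2-D1: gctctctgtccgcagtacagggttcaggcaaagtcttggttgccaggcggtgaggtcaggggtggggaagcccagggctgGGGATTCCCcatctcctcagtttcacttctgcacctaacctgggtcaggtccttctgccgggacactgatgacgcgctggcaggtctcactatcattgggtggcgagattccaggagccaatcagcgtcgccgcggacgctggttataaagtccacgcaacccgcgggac
Lined up on this element, 166 of 190 bases were identical, or 87.4%. The letters were found for 3 of the 66 genes, H2-D1, H2-K1 and H2-Q7, or 4.55%, and for 112 of 27025 genes, or 0.414%. All 3 are class I genes, several of which are close copies of each other, so their matches are not independent. The letters were also searched because class I genes are known to carry the element. No enrichment of the list is therefore read from these percentages. A search on both strands for GAAANNGAA, part of the interferon-stimulated response element, found 9 of the 66 genes, or 13.6%, against 9.76% of all genes.

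The remaining spots of the top 25 belong to cell machinery or have no listed gene. Pdia4, a disulfide isomerase of the endoplasmic reticulum, Aup1, which acts on lipid droplets and in protein degradation, and Golt1b, of Golgi transport, had ranges of 1.16 to 2.46, 1.06 to 2.25 and 0.65 to 2.43 in the p53coco Brca1coco tumours. Over the 10 arrays they averaged 0.90, 0.73 and 0.62, with limma adjusted p-values of 0.00257, 0.0448 and 0.0373. Arpc4, a subunit of the actin-branching Arp2/3 complex, averaged 1.06, and the 4 WAP-T121 tumours, at 0.12 to 0.78, lay below the 6 others, at 1.09 to 2.13. Crispld2, a secreted protein, averaged 2.19 with an adjusted p of 0.00641. Of the spots without a gene, spot 1614 had the highest mean of all 100, at 3.76 with an SE of 0.52 and an adjusted p of 0.000423. Spot 12112 averaged 2.64 and spot 21759 averaged 2.06. Both were highest among the WAP-T121 tumours in p53null replicate 2 and lowest among the Cre-labelled ones in MFT121_WAPCre_p53coco, as the H2-Q7 spots were. BC006965 averaged 0.80 with an adjusted p of 0.109.

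None of the genes that mark proliferation, epithelium, basal cells, milk, stroma, immune cells or fat in the lists held for comparison was on the list of 100. Only 1 of 6 milk spots, 2 of 4 immune spots and 2 of 4 fat spots were bright on all 12 arrays and could have been chosen. Over the same 10 arrays 11 of 17 proliferation spots, 4 of 7 epithelial spots and 5 of 6 milk spots were higher, while 4 of 5 stromal spots, 3 of 4 fat spots and 3 of 5 basal spots were lower. The median over the list was 0.75 for proliferation, 1.14 for epithelium and 2.29 for milk genes, and -3.33 for stroma.

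A set of spots was higher in nearly all Cre-labelled tumours than in WAP-T121 tumours. Some of them were near 0 in WAP-T121 tumours and others were not, with Wfdc18 reaching 2.62 and Chil3 falling to -2.99 there. Among the 10 arrays not used for the choice, the 4 WAP-T121 tumours lay below all 6 Cre-labelled tumours for 22 of the 100 spots, against 3.36% of tested spots, and above all 6 for 0 of the 100, against 6.48%. The choice was made on Cre-labelled tumours, which sets part of this direction. WAP-T121 and Cre-labelled tumours differ in transgene, Cre and strain label, and 3 of the 4 WAP-T121 arrays have the unlike reference, so these cannot be told apart. Against p53null replicate 2 alone, whose reference channel was like the rest, 35 of the 100 spots were higher in all 6 Cre-labelled tumours, against 20.5% of tested spots.

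Brinp1, known from neurons where it slows the cell cycle, is an example. It was -0.20, 0.48, -0.24 and -0.12 in the WAP-T121 tumours, against 3.89 to 5.22 in the 6 other Cre-labelled tumours. Brinp1 had a tumour signal above background on only 1 of the 4 WAP-T121 arrays. It ran from 4.17 to 6.51 in the p53coco Brca1coco tumours and was 3.48, 0.92, 5.31 and 4.12 in the p53coco tumours, the 0.92 being in replicate 2. Amph, amphiphysin of nerve terminals, Ikzf4, a lymphoid zinc-finger factor, and spots 2247 and 12970 had the same order, with 0.96, 0.97, 0.93 and 0.81 in p53coco replicate 2. In the other 11 tumours of the choice these 4 spots lay at 2.48 or above, and in the WAP-T121 tumours at 0.83 or below. The tumour signals of Amph, Ikzf4, spot 2247 and spot 12970 were above background on 2, 2, 1 and 3 WAP-T121 arrays. Some of these ratios near 0 thus rest on signals at background. Acsl4, which activates arachidonic acid, was 0.63 in p53coco replicate 2 and 0.19 to 0.43 in the WAP-T121 tumours, against 2.78 to 4.55 in the 6 others. These spots were picked after their values were seen, and get no test as a set. Beside them, p53coco replicate 2 and both p53null tumours had the low epithelial markers given above, with high stromal markers in the first and high basal markers in p53null replicate 2, while the p53het and WAP_T121 tumours, where these spots were also near 0, had summed epithelial log2 ratios of 13.2 and 9.39. The part of these markers in the result was not tested.

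A second set ranged widely within the 12 tumours of the choice. AY036118, a transcript with no protein name in the table, had the widest range of all 100 spots over the 22 arrays, from -5.03 in the WAP_T121 tumour to 4.29 in p53coco replicate 2, and spot 13528 came next, from -2.92 to 5.22 in the same tumours. Spot 13528 was 0.55, 5.22, 4.21 and 2.93 in the p53coco tumours and ran from 0.38 to 4.71 in the p53coco Brca1coco tumours. In the 6 other Cre-labelled tumours it stayed between -0.32 and 0.99, and its mean over the 10 arrays was -0.10 with a limma adjusted p of 0.841. Lars2, the mitochondrial leucyl-tRNA synthetase, Cdk5r2, an activator of the neuronal kinase Cdk5, and Grin2d, a glutamate receptor subunit, were likewise low in p53coco replicate 1, at 0.25, 0.09 and 0.07, and at 4.54, 5.59 and 4.52 in replicate 2. Over the 10 arrays they averaged -0.45, 0.22 and 0.32, and none passed, though Lars2 reached 1.71 and Grin2d 2.14 in 1 of the 6 other Cre-labelled tumours each. On the floored scale of the choice the lowest ratio of spot 13528 was 1.57. Signals of control spots set 5 arrays apart, 2 p53coco Brca1coco and 3 p53coco ones. The mean log2 ratio on these exceeded that on the other arrays by more than 1 in both groups for 0 of the 100 spots, against 0.343% of tested spots. Replicate 1 was the only p53coco array outside these 5, so within that label its low values and the array set cannot be told apart. The count asks for an excess in both groups and cannot separate them within p53coco alone.

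**Figure D4:**
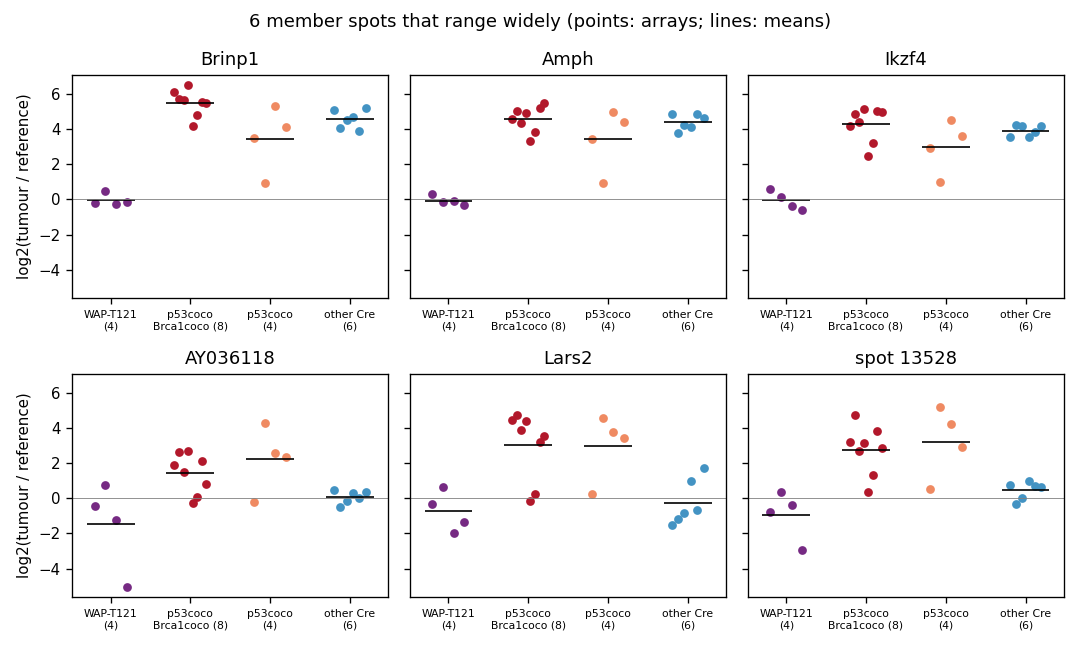
Log2 ratio of tumour over reference for 6 spots on the list that range widely, by group; each point is 1 array and each line the mean of its group. Brinp1, Amph and Ikzf4 are near 0 in the 4 WAP-T121 tumours and about 1 in a single p53coco tumour, and AY036118, Lars2 and spot 13528 spread over several log2 units within the groups of 8 and 4.

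The narrowest ranges over the 22 arrays were those of Smarca5, a chromatin remodelling ATPase, from -0.29 to 1.58, and Tsn, translin, a nucleic acid binding protein, from -0.13 to 1.76. Their means over the 10 arrays were 0.38 and 0.28, with limma adjusted p-values of 0.11 and 0.0893.

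The Brca1 comparison set p53coco Brca1coco tumours against p53coco tumours. Of the 100 spots 1 was higher and 0 were lower in limma's fit of all 22 arrays, against 0.00701% and 0% of tested spots, so this spot was also the only one of 14270 to pass. It was Tm4sf1, a tetraspanin-like membrane protein of endothelial and epithelial tumour cells. Its log2 ratio was 3.40 ± 0.42 (SD, n = 8) in the p53coco Brca1coco tumours and 1.40 ± 0.43 (SD, n = 4) in the p53coco tumours, whose values were 1.55, 1.05, 1.93 and 1.06. The lowest p53coco Brca1coco tumour, at 2.79, exceeded every p53coco tumour. The difference was 2.0 with an SE of 0.26 and a limma adjusted p of 0.0424. It lay in the tumour channel, at 1.99, while the reference channel differed by -0.01. Within the 5 arrays set apart by their control spots the difference was 1.97 (2 against 3 arrays) and within the others 1.88 (6 against 1). Outside these groups Tm4sf1 was 3.20 in MMTV_T121_WAPCre_p53cococ, 3.73 in MFT121_WAPCre_p53coco and 3.84 in MFT21_WAPCre_p53coco, labels without Brca1coco, so high values were not limited to Brca1coco labels. The call was lost with that array set as a block, at a limma adjusted p of 0.152. It was also lost with ratios scaled between arrays (limma adjusted p = 0.183), without the filter on dim spots (0.0745), with plain subtraction (0.65) and without any 1 of p53coco Brca1coco replicates 3 to 7 or p53coco replicates 2 and 4 (0.0675 to 0.127). All 12 arrays of this comparison also served to choose the spots, as did the p53coco Brca1coco or p53coco arrays in the T121, p53 and model comparisons with those tumours, so nothing is read from the share of the 100 spots called in them.

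For T121, the 8 p53coco Brca1coco tumours were compared with the single WAPCre_p53coco_Brca1coco tumour. Of the 100 spots 0 were higher and 0 lower in limma's fit, against 0.0631% and 0.014% of tested spots, and 3 had an unadjusted p under 0.05, against 3.92% of tested spots. The list stood at a median of 1.88 in the tumour without the T121 label, with all 100 spots above 0. The smallest p-values in each direction were those of Ddb1, of a DNA damage-binding complex, at a difference of 1.14 with an SE of 0.45, and Ppp1r35, a centrosome protein, at -0.95 with an SE of 0.44, both with a limma adjusted p of 0.999.

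Among Cre tumours, the 4 p53coco tumours were compared with the 2 p53cohet tumours for p53. Of the 100 spots 0 were higher and 1 was lower in limma's fit, against 0.266% and 1.65% of tested spots. The spot that fell was Fkbp4, a co-chaperone of Hsp90, with 0.64, 0.51, 0.90 and 0.69 in the p53coco tumours, against 2.71 and 0.97 in the p53cohet tumours. The groups did not overlap, and the difference was -1.16 with an SE of 0.24 and a limma adjusted p of 0.0283. The tumour channel of Fkbp4 differed by -2.17 and its reference channel by -1.01. The 2 p53cohet tumours hold separate labels, so the gap between them is not in that SE, and in a fit of the compared groups alone the adjusted p was 0.172. The call was lost too with the authors' ratios (limma adjusted p = 0.281), with the array set as a block (0.163) and without p53coco replicate 2 (0.074) or 4 (0.0581). Plain subtraction and scaling between arrays also lost it.

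**Figure D5:**
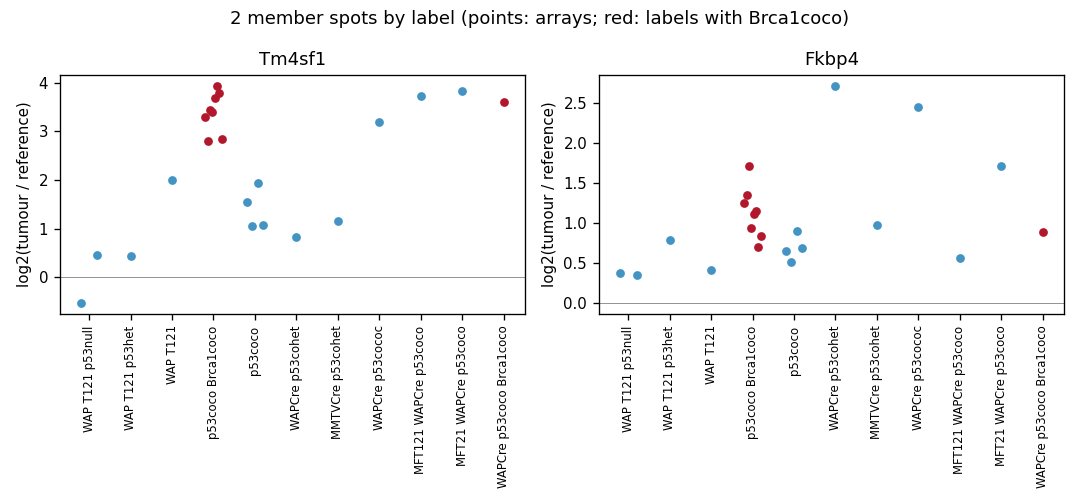
Log2 ratio of tumour over reference for Tm4sf1 and Fkbp4 by label; each point is 1 array, red for labels with Brca1coco and blue for the others, and labels leave out a leading MMTV and T121. Tm4sf1 lies at 2.79 or above in the 8 p53coco Brca1coco tumours and at 1.93 or below in the 4 p53coco tumours, and Fkbp4 lies at 0.90 or below in the p53coco tumours.

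In the p53 comparison of WAP-T121 tumours, 2 p53null tumours were set against 1 p53het tumour, and 0 of the 100 spots were higher and 0 lower in limma's fit, against 1.46% and 0.855% of tested spots. By unadjusted p under 0.05, 3 were higher and 1 lower, against 15.3% of tested spots in either direction. Nfkb2 had values of 0.47 and 1.80 in the p53null tumours and -0.86 in the p53het tumour, a difference of 2.0 with a limma adjusted p of 0.159. Its tumour channel differed by 0.09 and its reference channel by -1.91, on arrays of which 2 have the unlike reference. Cebpb had 0.62 and 0.26 in the p53null tumours and 2.50 in the p53het tumour, a difference of -2.06 with a limma adjusted p of 0.125. Its tumour channel differed by -2.99 and its reference channel by -0.93, with a tumour signal above background in 1 of the 2 p53null tumours. Nfkb2 and Cebpb also had the smallest p in the difference between the p53 comparisons of WAP-T121 and Cre tumours, at 2.52 and -2.26. There 0 of the 100 spots were higher and 0 lower by limma's adjusted p, against 2.33% and 0.617% of tested spots. An unadjusted p under 0.05 was held by 8 of the 100, against 15.4% of tested spots.

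The model comparison set the 2 p53null WAP-T121 tumours against the 4 p53coco tumours. All 100 differences were below 0, with a median of -1.10, against -0.02 over tested spots, and since the spots were chosen for high ratios in the p53coco tumours this direction was set in part by the choice. Of the 100 spots 3 were lower and 0 higher in limma's fit, against 0.427% and 0.624% of tested spots. Spot 16483 was -4.23 and -3.59 in the p53null tumours, against -0.19, 0.32, 1.38 and 0.78 in the p53coco tumours, a difference of -4.48 with an SE of 0.52 and a limma adjusted p of 0.00581. It was also -2.38 in the p53het tumour but 3.58 in the WAP_T121 tumour, where the strain label differs. Chil3 was -0.13 and -2.99 in the p53null tumours, not above background in either, against 1.96, 1.05, 3.79 and 2.48 in the p53coco tumours. In the tumour channel, after scaling both channels across arrays, it was at least 21.3-fold lower in the p53null tumours, a bound that is open to dye bias, and the limma adjusted p was 0.0425. Mmp2, named here after its values were seen, was -0.73 and -1.85, against 1.60, 0.78, 3.27 and 2.02, with a difference of -3.21 and an adjusted p of 0.0334. Of the 2 p53null arrays, replicate 1 has the unlike reference, and only 34 of its 100 tumour signals were above background. Leaving out either p53null array leaves the other alone in its group, so nothing is read from the counts of those runs. Without p53coco replicate 1, 3 or 4 the count of lower spots was 1. Without p53coco replicate 2, which had the low epithelial markers, it was 11, and in a fit of these groups alone it was 0.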

How the data were processed

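Spot and local background intensities of both channels are linear as deposited, per the file headers. Per the same headers the authors deposited a log2 ratio of tumour over reference after lowess within each array, used here as an alternative (r = 0.963 to 0.999 with the ratios used). Scanner software is not given in the sources used here. In limma 3.58.1 (R 4.3.3), normexp with an offset of 50 corrected the background, and loess within each array, with control spots at weight 0, gave the ratios. A spot was tested if its tumour signal exceeded background by 2 background SDs on at least 4 arrays. limma fitted 1 mean per label to all 22 arrays, or 1 mean to the 10 arrays outside the choice, two-sided, with Benjamini-Hochberg adjustment over 14270 spots at 0.05, and was tested on simulated data. A label with 1 tumour takes its spread from the rest. The number of arrays limits precision. Of 18234 probes in the platform annotation 18218 have 1 gene and 16 several, 4341 spots are not in it, and 18175 probes matched RefSeq by gene ID. Members, lists, families and motifs were chosen with earlier results of these data known. Named were the 25 leading spots, up to 2 higher and 2 lower per comparison (else the smallest p each way), the widest and narrowest ranges and the edges; others illustrate families or sets. Alternatives were the authors' ratios, plain subtraction, no dim filter, scaling, array weights, an array set as a block, fewer groups, and each array left out.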

Additional observations from a re-analysis of the deposited data

Results flagged for a closer look

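In p53coco Brca1coco replicate 1, 3 spots stood far above the other 7 tumours of that label. Il1b was at a log2 ratio of 6.07, the others lying between 1.27 and 3.30. Ptges was at 3.84, with the others between 0.90 and 2.10, and Nfkb2 was at 2.80, with the others between 0.97 and 1.75. In p53coco replicate 2, Arpc4 was at 2.05, while the other 3 p53coco tumours lay between 1.13 and 1.16. In all, 4 of 74 groups of values were marked in this way, and chance marks about 1 in 20.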

How the results depend on the processing

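Counts are of the 100 spots past the limma threshold. Over the 10 arrays outside the choice the count of 75 stayed between 73 and 96 under other processing and between 63 and 76 with 1 array left out. The Brca1 count of 1 was 0 with plain subtraction, without the dim filter, with scaling and with the array set as a block, 6 with array weights, and 0 to 1 with 1 array left out. Over all tested spots array weights called 411 higher and 495 lower there, against 1 and 0. The T121 count was 0 throughout. The p53 count in Cre tumours, 1, was 0 with the authors' ratios, plain subtraction, scaling, the block or only the groups compared, 10 with array weights, and 0 to 1 with 1 array left out; over all tested spots the authors' ratios called 6 higher and 43 lower, against 38 and 235. The p53 count in WAP-T121 tumours, 0, was 3 with plain subtraction, 1 with scaling, and 3 without either p53null array. The model count of 3 was 8 with scaling, 0 with array weights, 1 with the block, 0 with only the groups compared, and 1 to 28 with 1 array left out; over all tested spots 500 were higher and 483 lower without p53null replicate 2, against 89 and 61. The cause of these changes was not tested. Runs without a p53null array leave 1 array in that group, so nothing is read from their counts. Spot 13528, at -0.10 over the 10 arrays, turned to 1.54 with plain subtraction, 0.20 with array weights and 0.44 without the unlike references, and lay between -0.22 and 0.21 with 1 array left out. Plain subtraction moved the median of all tested spots there to 0.49. Of the 100 spots 52 would be chosen by the mean ratio, 64 by the normexp ratio and 60 with both channels bright. Of the other values for single spots, 475 kept direction and side of the threshold, 58 lost the call and 7 gained it. The array set as a block was not run for the 10 arrays, which lie in 1 set. No paired analysis was possible because the labels give no replicate numbers that pair tumours.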
